A study of Mus musculus with 6 samples.

Results

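The 42 genes described here encode the core machinery of autophagy and its receptors for mitochondria, and were taken as a list of names. A gene was measured by the probe set whose only gene symbol was that gene, and where several did so, by the probe set with the highest mean over all 6 arrays. All 42 genes were found, among 30063 genes in all. RNA of epidermal sheets was measured on 3 arrays from Rptor cKO embryos (arrays 1 to 3) and 3 arrays from wild-type littermates (arrays 4 to 6), all at embryonic stage E18.5. Rptor encodes Raptor, the subunit that presents substrates to the kinase complex mTORC1. The knockout is conditional, but the sources used here do not name the Cre line or the floxed alleles, nor say whether the wild-type littermates carried either. The sheets were lifted off the dermis with ammonium thiocyanate, so that they hold all layers of the epidermis with whatever dermis, melanocytes and leukocytes came along. Values were taken as log2 expression values, and every difference is Rptor cKO minus wild-type.

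In autophagy a membrane sheet grows around part of the cytoplasm, closes into an autophagosome and fuses with a lysosome. The ULK kinase complex starts the process and is a direct target of inhibition by mTORC1, a class III PI3-kinase complex then marks the growing membrane with the lipid PI3P, and conjugation enzymes attach the small ubiquitin-like proteins of the ATG8 family (LC3 and GABARAP) to it. Receptors such as p62 and BNIP3 link cargo to ATG8 proteins. In the epidermis autophagy is known to be active in the upper, differentiating layers, where keratinocytes lose their nuclei and mitochondria.

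The arrays of each group stood together, with the first principal component of all genes placing Rptor cKO between -42.2 and -18.8 and wild-type between 25.0 and 47.3. Rptor itself read 6.54, 6.82 and 6.72 in Rptor cKO against 6.98, 7.46 and 7.0 in wild-type, without overlap. The difference did not pass the test (-0.46, SE 0.15, limma adjusted p = 0.0988). Whether its probe set reads the deleted part of the gene is not known here. By Xist and 3 Y-linked genes, Rptor cKO arrays 1 and 3 came from females and the other 4 arrays from males. All 42 genes read above the negative control median, which is the array's median over probe sets for negative controls, on each array. That is a low bar, as the 95th percentile of these controls was 7.46 to 8.07. On Rptor cKO array 1 the brightest of the 42 genes, Ambra1, read 7.70 against a percentile of 8.07. Bnip3 read below this percentile on each of the 6 arrays. Precision is limited throughout by the small number of arrays.

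In the Rptor cKO epidermis 11 of the 42 genes fell, and among these the largest falls were those of the mitophagy receptor gene Bnip3 and of the ATG8 genes Gabarapl2 and Gabarapl1. None rose and 31 did not pass the test, which was limma with Benjamini-Hochberg adjustment over all 30063 genes and a threshold of 0.05. At an unadjusted limma p under 0.05, 27 were lower and none higher, where 3423 of all 30063 genes were lower and 3574 higher. The 11 falls are 26.2% of the list, where 5.96% of all genes fell and 3.64% rose (5.20% and 4.85% with quantile normalization), and where 8.73% of the 20186 genes with a mean above the negative control median fell and 5.08% rose. That cutoff was 3.89, whereas the dimmest of the 42 genes, Atg4c, averaged 4.68. The 20186 genes are thus not matched to the list in brightness, and a share among matched genes was not computed. The difference was below 0 for 39 of the 42 genes, where it was below 0 for 38.4% of all genes, and the median was -0.36 against 0.05 over all genes. With array medians subtracted it was below 0 for 39 of the 42 and 45.7% of all genes, and with quantile normalization for 38 and 43.2%. For 26 of the 42 genes each Rptor cKO array lay below each wild-type array, which held for 12.5% of all genes and 17.1% of the brighter 20186. None of the 42 had each Rptor cKO array above each wild-type array, which held for 16.5% of all genes. In the fit without Rptor cKO array 2 only 2 of the 11 falls passed, Bnip3 and Atg13, and without Rptor cKO array 1 there were 4, those and Rb1cc1 and Gabarapl1. Of all genes 2.07% and 3.71% fell in these fits. The median of the 42 genes was then -0.39 and -0.35. In bulk tissue, fewer cells of a type and less RNA per cell cannot be told apart, here and in all that follows.

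**Figure D1:**
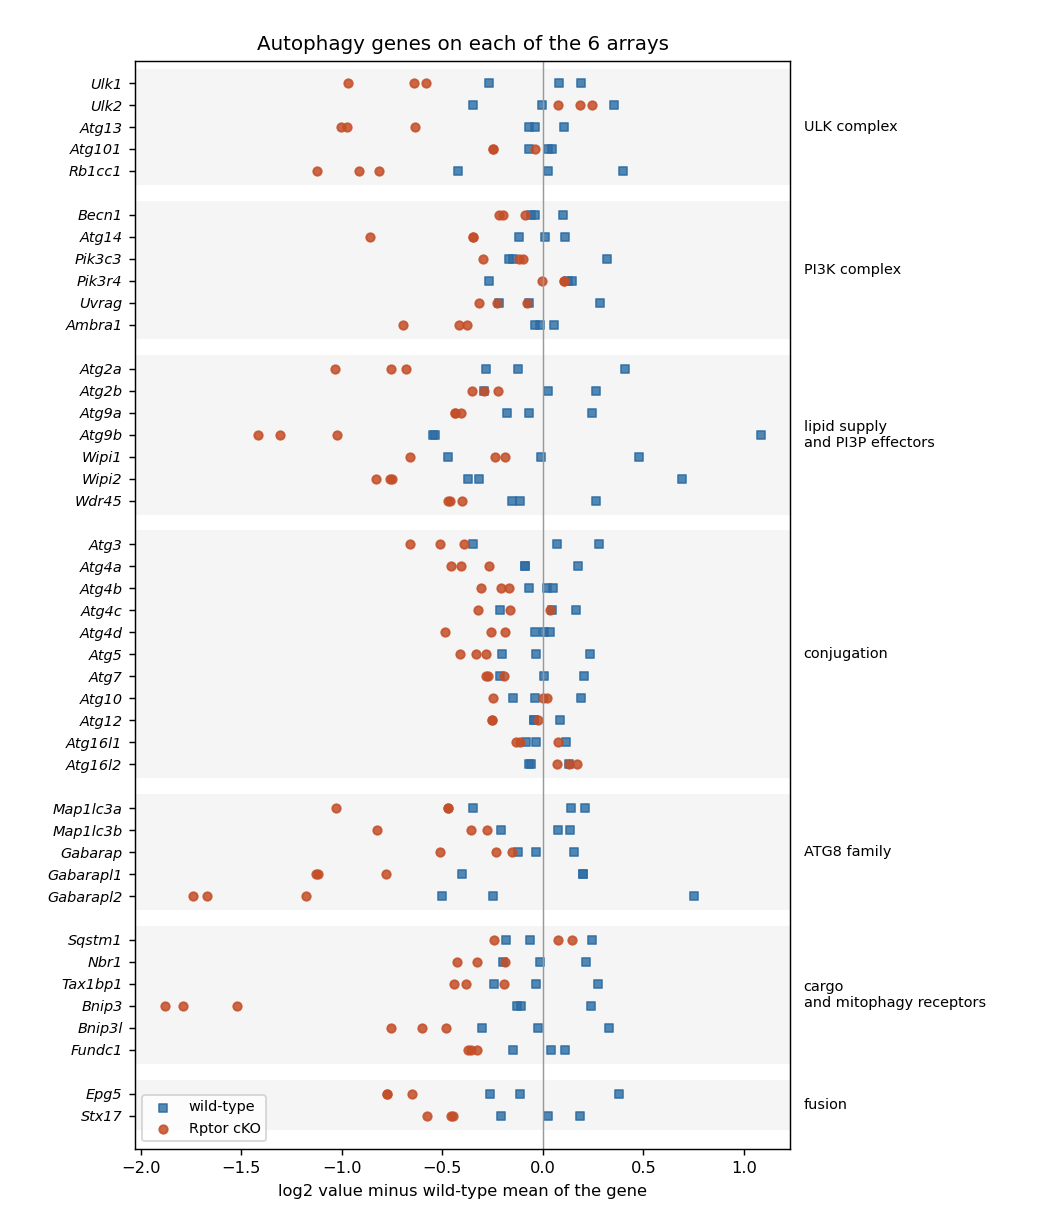
Each of the 42 genes is drawn as 3 Rptor cKO arrays (circles) and 3 wild-type arrays (squares), on the log2 scale relative to the gene's wild-type mean and grouped by step. The circles lie to the left of all squares for 26 genes, farthest for Bnip3, where a gap of 1.39 separates the groups.

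The ULK complex holds the kinase that starts autophagosome formation, and 3 of its 5 genes fell. Ulk1, the kinase that mTORC1 phosphorylates, read 6.97, 7.30 and 7.36 in Rptor cKO against 8.13, 8.02 and 7.67 in wild-type, a 1.65-fold fall (-0.73, SE 0.15, limma adjusted p = 0.0217). Atg13, the adaptor that joins the kinase to the rest of the complex, read 7.13, 7.10 and 7.47 against 8.21, 8.07 and 8.04, a 1.83-fold fall (-0.87, SE 0.12, limma adjusted p = 0.00515). Rb1cc1, which encodes the scaffold FIP200, read 5.80, 5.59 and 5.90 against 7.11, 6.29 and 6.74, a 1.94-fold fall (-0.95, SE 0.19, limma adjusted p = 0.0199). The groups were apart for all 3 genes, and the wild-type arrays of Rb1cc1 were spread over 0.82. Atg101, the partner of ATG13, differed by -0.18 (SE 0.096, limma adjusted p = 0.325), and its Rptor cKO array 3 lay among the wild-type arrays. Ulk2, the second kinase of the pair, read 5.77, 5.66 and 5.83 against 5.24, 5.58 and 5.94, with the Rptor cKO arrays inside the wild-type range (0.16, SE 0.17, limma adjusted p = 0.617). Its sign turned without wild-type array 4 (-0.01). The call of Atg13 held with any 1 array left out. That of Ulk1 was lost without Rptor cKO array 1 or 2 or wild-type array 4 or 5 (limma adjusted p 0.0518 to 0.0724). That of Rb1cc1 was lost without Rptor cKO array 2 or wild-type array 6 (0.0933 and 0.0675).

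The class III PI3-kinase complex, which makes PI3P on the growing membrane, held 1 fall among 6 genes, with a median of -0.19. Ambra1, a scaffold that regulates both Beclin 1 and ULK1, read 7.70, 7.98 and 8.02 in Rptor cKO against 8.45, 8.38 and 8.36 in wild-type, a 1.41-fold fall (-0.50, SE 0.11, limma adjusted p = 0.0257). The wild-type arrays lay within 0.09 of each other. The call was lost without any 1 array other than Rptor cKO array 3 (limma adjusted p 0.0583 to 0.0771), and with quantile normalization (-0.33, adjusted p = 0.0578). Atg14, the subunit that sends the kinase to autophagosome formation sites, read 4.82, 5.33 and 5.33 against 5.56, 5.69 and 5.79. The groups were apart, with Rptor cKO array 1 far below the others, but the difference missed the threshold (-0.52, SE 0.15, limma adjusted p = 0.0701). The lipid kinase itself, Pik3c3 (VPS34), differed by -0.17 (95% interval -0.51 to 0.16), its regulatory subunit Pik3r4 by 0.07 (-0.22 to 0.35), Becn1 (Beclin 1) by -0.17 (-0.39 to 0.04) and Uvrag, of the endosomal form of the complex, by -0.20 (-0.52 to 0.11). Of these 4, the groups were apart for Becn1, by 0.03. The sign of Pik3r4 turned without wild-type array 4 (-0.07).

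All 7 genes of lipid supply and PI3P binding were below 0, with a median of -0.45, and 1 fell. Atg2a, a channel-like protein that carries lipids into the growing membrane, read 6.19, 6.47 and 6.54 in Rptor cKO against 7.63, 7.10 and 6.94 in wild-type, a 1.77-fold fall (-0.82, SE 0.18, limma adjusted p = 0.0264). The call was lost without Rptor cKO array 1 or 2 (limma adjusted p 0.0763 and 0.0888). Atg9b, a lipid scramblase, had the largest difference of the genes that did not pass, -1.25 (SE 0.39, limma adjusted p = 0.0911). It read 5.75, 5.64 and 6.03 against 8.14, 6.51 and 6.52, so that wild-type array 4 stood 1.61 above the next. Wipi2, the PI3P reader that recruits the conjugation machinery, had the same shape, with 7.38, 7.45 and 7.46 against 8.90, 7.84 and 7.89 (-0.78, SE 0.25, limma adjusted p = 0.101). Without wild-type array 4 both passed, at smaller differences of -0.71 (limma adjusted p = 0.0187) for Atg9b and -0.44 (limma adjusted p = 0.0384) for Wipi2. The groups were also apart for Atg9a (-0.43, SE 0.12, limma adjusted p = 0.0627), which passed with array medians subtracted (-0.46, adjusted p = 0.0433), and for Wdr45, a PI3P binder on the X chromosome (-0.45, SE 0.12, limma adjusted p = 0.0615). Atg2b and Wipi1 overlapped between groups, at -0.29 and -0.36.

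None of the 11 genes of conjugation passed the test in either direction, although 5 did so at an unadjusted p under 0.05, all lower. At that limma p 3423 of all 30063 genes were lower. Their median was -0.23, and the differences ran from -0.52 to 0.12. Atg3, which transfers ATG8 proteins to lipid, read 6.71, 6.44 and 6.59 in Rptor cKO against 7.17, 6.75 and 7.38 in wild-type (-0.52, SE 0.16, limma adjusted p = 0.0908), and passed without wild-type array 5 (-0.69, limma adjusted p = 0.0201). Its groups were apart by 0.03. Atg7, the activating enzyme of both conjugation reactions, differed by -0.25 (95% interval -0.52 to 0.02), Atg5 by -0.34 (-0.62 to -0.06), its partner Atg12 by -0.18 (-0.41 to 0.05), and Atg10, which joins that pair, by -0.08 (-0.36 to 0.20). Among the ATG4 proteases, which process ATG8 proteins and release them from membranes, Atg4a (-0.38), Atg4b (-0.23) and Atg4d (-0.31) had groups that were apart, while Atg4c (-0.15) overlapped. The scaffold genes Atg16l1 (-0.06, -0.29 to 0.17) and Atg16l2 (0.12, -0.10 to 0.34) overlapped as well. The signs of Atg10 and Atg16l1 were not stable, reaching 0.02 and 0 without wild-type array 6, and Atg10 read 0.01 without Rptor cKO array 2. These intervals are those of the fit before adjustment over genes.

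The ATG8 proteins coat the autophagosome and hold the cargo receptors, and 2 of their 5 genes fell. All 5 had each Rptor cKO array below each wild-type array, which held for 12.5% of all genes and 17.1% of the brighter 20186. Gabarapl2 (GATE-16; chr8:111940703-111952915) read 7.43, 7.36 and 7.92 in Rptor cKO against 9.85, 8.60 and 8.85 in wild-type, a 2.89-fold fall (-1.53, SE 0.30, limma adjusted p = 0.0177). Wild-type array 4 stood 1.00 above the next, and without it the difference was -1.15 and still passed. The call was lost without Rptor cKO array 1 or 2 (limma adjusted p 0.0521 and 0.0862). Gabarapl1 read 7.26, 7.25 and 7.60 against 8.58, 8.58 and 7.98, a 2.02-fold fall (-1.01, SE 0.18, limma adjusted p = 0.0117), which was lost without Rptor cKO array 2 (limma adjusted p = 0.0621). Gabarap itself read 7.20, 7.48 and 7.56 against 7.87, 7.68 and 7.59, so that its groups were apart by 0.03 (-0.30, SE 0.12, limma adjusted p = 0.188). The LC3 genes lay between. Map1lc3a read 5.76, 6.32 and 6.32 against 7.0, 6.93 and 6.44 (-0.66, SE 0.20, limma adjusted p = 0.0752), and passed without wild-type array 6 (-0.84, limma adjusted p = 0.0481). Map1lc3b, the gene of the LC3 form most used as an autophagosome marker, read 6.75, 7.30 and 7.22 against 7.71, 7.65 and 7.37 (-0.49, SE 0.16, limma adjusted p = 0.111). Rptor cKO array 1 was the lowest of all arrays for the LC3 genes and for Gabarap.

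Of the 6 receptor genes 2 fell, both of mitophagy, and the ubiquitin-binding receptors did not pass. Bnip3, an outer mitochondrial membrane protein that binds ATG8 proteins and is induced by hypoxia in many tissues (chr7:138890836-138909506), read 5.35, 5.44 and 5.71 in Rptor cKO against 7.12, 7.47 and 7.10 in wild-type. This was a 3.32-fold fall (-1.73, SE 0.14, limma adjusted p = 0.000956), the largest of the 42 genes, and it passed with any 1 array left out (-1.84 to -1.61). Bnip3l (NIX), its relative that clears mitochondria from maturing red cells and keratinocytes, read 7.13, 7.28 and 7.40 against 8.21, 7.86 and 7.58, a 1.53-fold fall at the edge of the threshold (-0.61, SE 0.16, limma adjusted p = 0.0492). Its call was lost without any 1 array other than wild-type array 6 (limma adjusted p 0.0675 to 0.153) and with quantile normalization (-0.47, adjusted p = 0.110). Fundc1, another mitophagy receptor, read 5.55, 5.58 and 5.54 against 6.02, 5.76 and 5.95. The groups were apart and the Rptor cKO arrays lay within 0.04 of each other, but the difference missed the threshold (-0.35, SE 0.097, limma adjusted p = 0.0593), and passed without wild-type array 5 (-0.43, limma adjusted p = 0.0422). Sqstm1, which encodes p62, read 6.73, 7.05 and 7.12 against 6.79, 7.22 and 6.91, and its difference of -0.01 (95% interval -0.34 to 0.32) turned sign with quantile normalization (0.08), in the fit with embryo sex (0.08) and without Rptor cKO array 1 or wild-type array 5 (0.11 each). Nbr1 and Tax1bp1, which share with p62 the binding of ubiquitin and ATG8 proteins, differed by -0.32 and -0.34 with limma adjusted p of 0.171 and 0.191.

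Both genes of the fusion step fell. Epg5, a tether between autophagosome and late endosome, read 5.56, 5.56 and 5.68 in Rptor cKO against 6.71, 6.22 and 6.07 in wild-type, a 1.66-fold fall (-0.73, SE 0.16, limma adjusted p = 0.0249). Stx17, the SNARE protein of the closed autophagosome, read 6.28, 6.15 and 6.27 against 6.91, 6.52 and 6.75, a 1.41-fold fall (-0.50, SE 0.12, limma adjusted p = 0.0345). The Rptor cKO arrays lay within 0.13 of each other for both. The call of Epg5 was lost without Rptor cKO array 1 or 2 (limma adjusted p 0.0680 and 0.104), and that of Stx17 without any 1 array other than wild-type array 5 (0.0712 to 0.140) and with quantile normalization (-0.42, adjusted p = 0.0684).

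**Figure D2:**
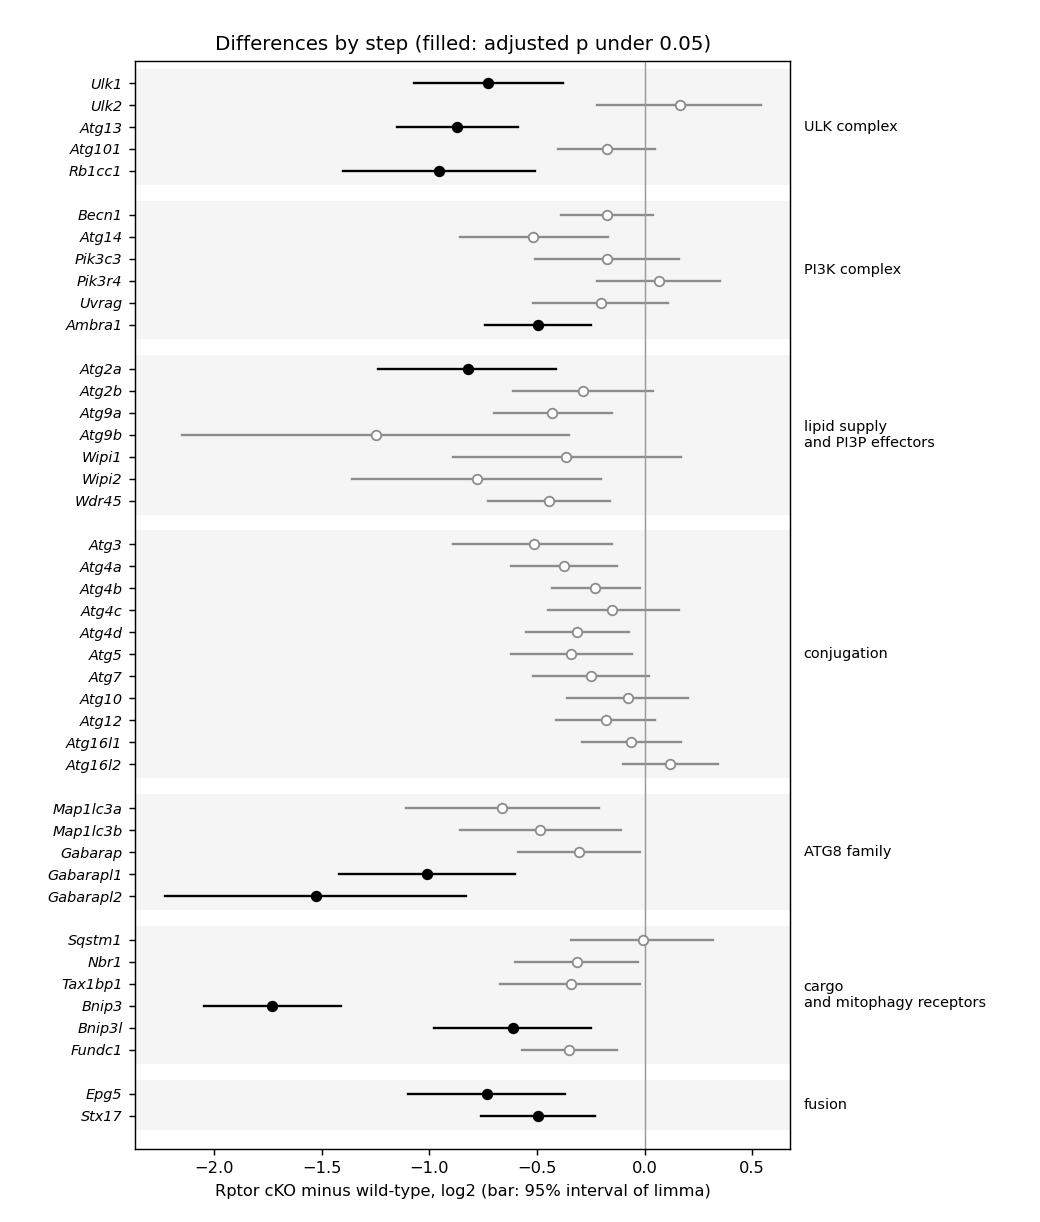
The difference of each gene is drawn with its 95% interval from limma on the log2 scale, filled where the adjusted p was under 0.05. The 11 filled points run from -0.50 to -1.73 and none is in the conjugation step, while the open points run from -1.25 to 0.16.

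The size of change of related genes is given as a description, since 3 against 3 arrays cannot take an exact two-sided permutation test below p = 0.1. The log2 value of a gene was set against that of its relative on the same array, and this within-array difference was compared between groups for 9 pairs. It was lower in Rptor cKO for Bnip3 against Bnip3l (-1.12, SE 0.23), Gabarapl2 against Gabarap (-1.23, SE 0.34), Gabarapl1 against Gabarap (-0.71, SE 0.17), Ulk1 against Ulk2 (-0.89, SE 0.36) and Atg2a against Atg2b (-0.54, SE 0.38). In these 5 pairs no Rptor cKO array reached the lowest wild-type array, though in the Atg2 pair the highest Rptor cKO value was -0.40 and the lowest wild-type value -0.39. The exact permutation p was 0.1 for each, and 0.18 after Benjamini-Hochberg adjustment over the 9 pairs. In the other 4 pairs the groups overlapped, with 0.42 (SE 0.61) for Wipi1 against Wipi2, 0.82 (SE 0.60) for Atg9a against Atg9b, -0.18 (SE 0.15) for Atg16l1 against Atg16l2 and -0.18 (SE 0.074) for Map1lc3a against Map1lc3b (exact p from 0.2 to 0.8). Without wild-type array 4 the value was -0.16 for the Wipi pair, 0.25 for the Atg9 pair and -0.18 for the Atg2 pair.

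The sex of the embryos was not balanced. With embryo sex as an added term the group difference rests on the male of the Rptor cKO group, array 2, against the 3 male wild-type arrays, and the spread is that of the wild-type and female arrays, which the lone array is assumed to share. Bnip3 (-1.79) and Atg13 (-1.0) then passed and the other 9 of the 11 genes did not, with differences from -1.74 for Gabarapl2 to -0.42 for Ambra1. In the same fit 1.47% of all genes fell, against 5.96% without the term. All 11 were below 0, but they had been picked by their group difference on these same arrays. Of the 42 genes 38 were below 0, with a median of -0.34. Over all genes 36.8% were below 0 in this fit, with a median of 0.08. Wdr45, Atg4a and Fundc1 are on the X chromosome. For each of them both female Rptor cKO arrays and the male one read lower than any of the 3 male wild-type arrays. Such a separation of the groups held for 12.5% of all genes. Atg4a, for example, read 4.90 and 4.85 on the female arrays, 5.04 on the male Rptor cKO array and 5.22, 5.22 and 5.48 in wild-type.

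Promoter sequences were set beside these values because several transcription factors known to act on autophagy and mitophagy genes read short motifs. The MiT/TFE factors and other basic helix-loop-helix proteins read the E-box CACGTG, best within the longer palindrome called the CLEAR motif, hypoxia-inducible factors read ACGTG, and FoxO factors read GTAAACA. Both strands were searched in windows of 300 bases, from 250 before to 50 after the start site, in RefSeq promoters of GRCm38.p6, and each CACGTG also counts as ACGTG. Of the 42 genes 34 had such a window, among them 8 of the 11 that fell. In 26 of the 34 a window's start site lay within 100 bases of the 5′ end of the annotated gene, and in the other 8 it lay farther inside the gene, by 27969 bases for Atg7. CACGTG was in the windows of Atg14, Atg3, Atg5, Atg7 and Bnip3, 5 of 34 genes, against 8.09% of 27025 genes. Bnip3 was the only one of these 5 that passed the test on the arrays, and the E-box of Atg7 is the one before that internal start. ACGTG was in 16 of 34 genes, against 21.8% of all, and in 2 of the 8 that fell, Bnip3 and Gabarapl2. The CLEAR motif and GTAAACA were in none of the 34 windows, against 0.37% and 4.05% of all genes. The stretches below, upstream of the start site, show the motif of the 2 genes with the largest falls and, for comparison, the E-boxes of the conjugation genes Atg3 and Atg5, which did not pass. Capitals mark CACGTG, or in Gabarapl2 the letters of ACGTG read on the other strand, and all are written 5′ to 3′ along the gene.
Bnip3, minus strand, chr7:138909579-138909644, motif starting 108 bases before the start site: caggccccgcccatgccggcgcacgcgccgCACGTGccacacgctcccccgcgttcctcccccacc
Gabarapl2, plus strand, chr8:111940598-111940662, 75 bases before: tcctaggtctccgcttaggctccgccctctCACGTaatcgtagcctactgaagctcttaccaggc
Atg3, plus strand, chr16:45158705-45158793, 94 and 71 bases before: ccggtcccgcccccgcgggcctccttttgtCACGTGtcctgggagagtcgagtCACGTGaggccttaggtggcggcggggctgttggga
Atg5, plus strand, chr10:44268295-44268338, 14 bases before: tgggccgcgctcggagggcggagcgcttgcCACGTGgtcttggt
A match of letters is not a bound site, and binding was not measured.

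Other genes of the pathway, a list of 45 written from general knowledge of which 38 were measured, gave 11 falls (28.9%, against 5.96% of all genes) and 1 rise (against 3.64% of all genes), with a median of -0.30. Of 14 early genes and regulators 1 fell, Tmem41b, an ER scramblase needed for autophagosome growth (6.30, 6.13 and 6.46 in Rptor cKO against 7.20, 7.0 and 6.88 in wild-type; -0.73, SE 0.12, limma adjusted p = 0.00976). Of 13 further receptors 5 fell and 1 rose. Retreg1, the ER-phagy receptor FAM134B, had the largest fall, 3.06-fold, from 7.47, 6.48 and 6.64 in wild-type to 5.15, 5.02 and 5.58 (-1.61, SE 0.26, limma adjusted p = 0.00829). Ncoa4, the receptor for ferritin, read 6.02, 5.99 and 6.01 against 6.80, 6.60 and 6.54 (-0.64, SE 0.099, limma adjusted p = 0.00744). Ccpg1 (-0.41) and Tex264 (-0.83) of ER-phagy and Wdfy3 (-0.43), a scaffold for aggregates, completed the falls, and Tex264, the fifth by p, is outside the naming rule and was chosen after its value was seen. Phb2 (prohibitin 2), an inner mitochondrial membrane protein with roles beyond mitophagy, rose by 0.47 (SE 0.10, limma adjusted p = 0.0257).

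Of 11 tethers and fusion genes 5 fell, where 5.96% of all genes fell. Each of the 5 had every Rptor cKO array below every wild-type array, which held for 12.5% of all genes. Snap29, the SNARE partner of Stx17, read 6.54, 6.81 and 7.39 in Rptor cKO against 8.65, 8.05 and 8.13 in wild-type, a 2.57-fold fall (-1.36, SE 0.23, limma adjusted p = 0.0104), and Vamp8, the lysosomal SNARE of the same complex, fell 1.38-fold (-0.46, SE 0.11, limma adjusted p = 0.0384). The genes of all 3 members of this SNARE complex were thus lower, while Ykt6, a further SNARE of fusion, differed by -0.40 (SE 0.13, limma adjusted p = 0.0997). Vps41 (-0.79, SE 0.13) and Vps33a (-0.81, SE 0.18) of the HOPS tether fell, as did the adaptor Plekhm1 (-0.72), the fifth by p and outside the naming rule. The other HOPS genes, Vps11 (-0.31), Vps39 (-0.30), Vps16 (-0.12) and Vps18 (-0.05), did not pass and are named for comparison, outside that rule. The calls of Retreg1, Ncoa4 and Vps41 held with any 1 array left out. Those of Tmem41b (limma adjusted p = 0.0503) and Snap29 (0.0568) were lost without Rptor cKO array 2 and with no other array left out. Vps33a lost its call without Rptor cKO array 2 or wild-type array 5 or 6 (0.0778 to 0.0978). Ccpg1 and Vamp8 lost theirs without 5 of the 6 arrays (0.0582 to 0.130 and 0.0619 to 0.152), Tex264, Plekhm1 and Phb2 without 4 (0.0519 to 0.141), and Wdfy3 without any 1 of the 6 (0.0531 to 0.111). Without Rptor cKO array 1 the list held 6 falls, without Rptor cKO array 2 it held 3, without wild-type array 5 or 6 it held 7, and with quantile normalization 6.

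The differentiated layers of the epidermis moved in the same direction as the autophagy genes and further. All 7 spinous markers and 7 of 8 granular and cornified markers fell, with medians of -2.07 and -2.24. Of all genes 5.96% fell and 3.64% rose, which is the share to set beside each marker count here. The mean log2 level of the spinous markers was 8.69 to 10.12 on the Rptor cKO arrays and 11.08 to 11.51 on the wild-type arrays, and that of the granular and cornified markers 7.16 to 8.69 and 9.87 to 10.83. Within Rptor cKO, array 3 had the highest level of both lists, and it was also the highest of its group for 10 of the 11 autophagy genes that fell. Within wild-type, array 4 had the highest level of both lists and was the highest of its group for 10 of the 11. The first principal component of all genes also set Rptor cKO array 3 (-18.8) nearest to wild-type and wild-type array 4 (47.3) farthest from Rptor cKO. This order is thus not particular to these lists, and the 11 genes were picked by their group difference. Over all 42 genes, the median against the wild-type mean was -0.44, -0.34 and -0.35 on Rptor cKO arrays 1 to 3. Their mean level on these arrays was 6.26, 6.30 and 6.40. Of 7 basal markers 1 fell, Krt15 (-2.31, SE 0.35, limma adjusted p = 0.00687), by more than the spinous median. Itgb4 rose (0.98, limma adjusted p = 0.00291) and the rest did not pass. The mean level of the 7 basal markers overlapped, at 9.08 to 9.43 and 9.20 to 9.50. Of 6 dermal fibroblast markers 4 rose and none fell, with mean levels of 6.05 to 6.69 against 5.50 to 5.72. Of 5 leukocyte markers 2 fell (Ptprc and Csf1r), with 4.15 to 4.44 against 4.37 to 4.57, and Cd207 of Langerhans cells read 4.16 ± 0.15 and 4.04 ± 0.14 (SD, n = 3). Ptprc read below the negative control median on 4 of the 6 arrays, among them all 3 Rptor cKO arrays. Of 5 endothelial markers 1 rose (Pecam1), with levels of 4.31 to 4.52 against 4.02 to 4.32, and Kdr read below the negative control median on each of the 6 arrays. No melanocyte or skeletal muscle marker passed, of 6 and 4, with levels of 7.14 to 7.83 against 6.79 to 7.43 and 5.47 to 6.05 against 5.02 to 5.61. Of the erythroid markers Alas2 alone was measured, at 5.11 to 5.59 against 4.99 to 5.42. The part of these cell types in the fall of the autophagy genes was not tested. Without Rptor cKO array 2, the falls numbered 4 spinous and 3 granular and cornified markers and the rises 1 fibroblast marker. Without wild-type array 6 these numbers were 4, 4 and 1, and the fibroblast rises were 2 without Rptor cKO array 1 or wild-type array 5 and with either rescaling of the arrays. With embryo sex as a term 3 granular and cornified markers fell and 2 fibroblast markers rose, with the trended robust prior 4 granular and cornified markers fell, and without variance moderation no marker of these 3 lists passed. Without Rptor cKO array 3, 6 fibroblast markers rose.

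**Figure D3:**
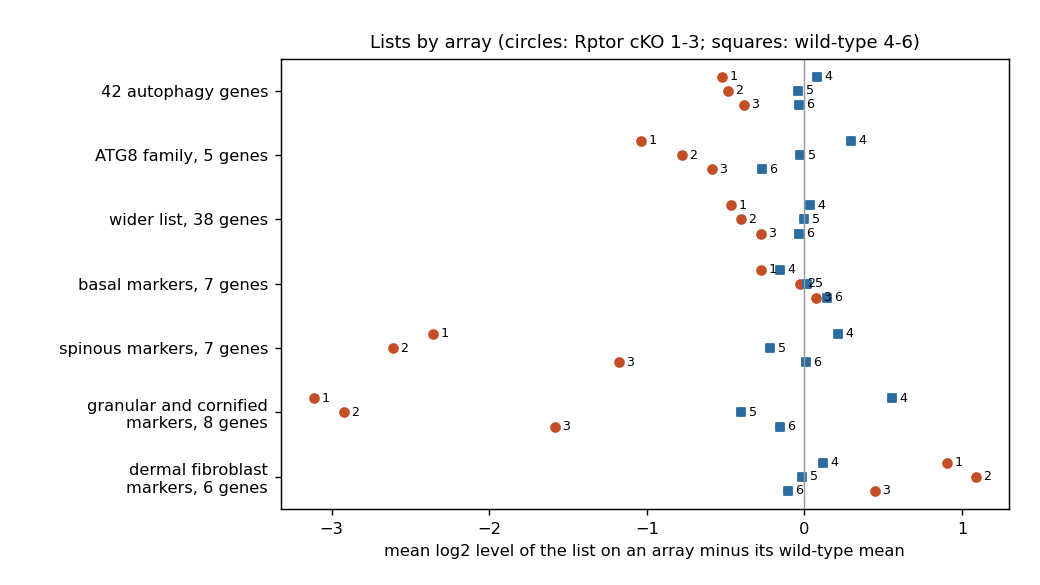
The mean log2 level of each list is drawn for each array relative to its wild-type mean, with circles for Rptor cKO and squares for wild-type and the array number beside each. The autophagy genes of the 3 Rptor cKO arrays lie below all wild-type arrays (6.26 to 6.40 against 6.74 to 6.86 before centring), and the spinous and the granular and cornified markers lie further below.

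**Figure D4:**
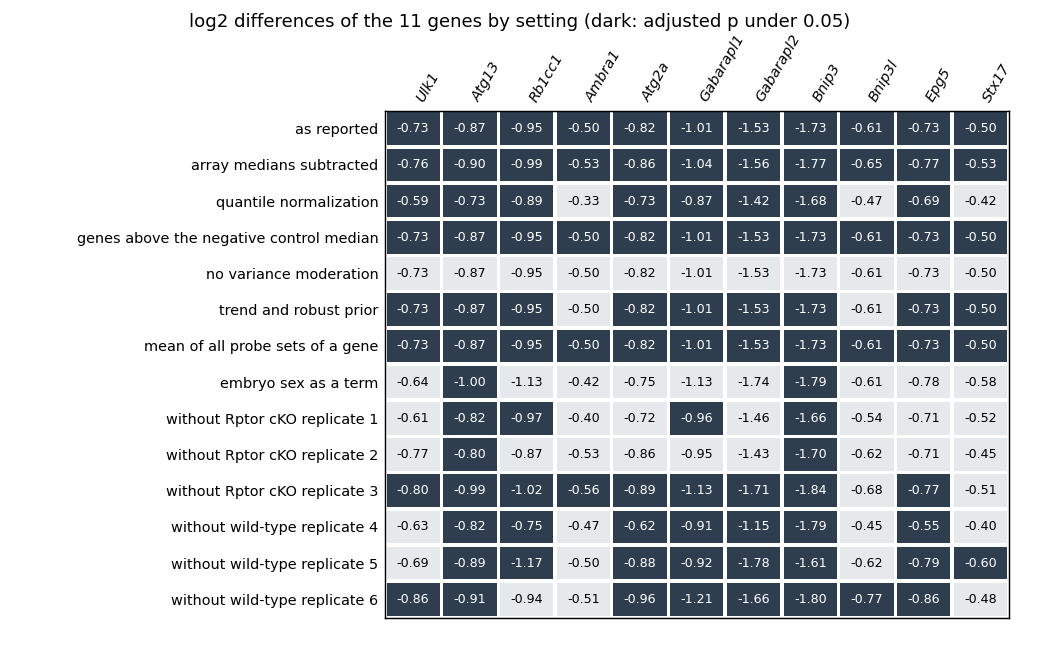
The log2 difference of the 11 genes that fell is written for each way of processing the arrays and each array left out, on dark ground where the adjusted p was under 0.05. All values are below 0, Bnip3 and Atg13 are dark in 13 of the 14 rows, and no gene is dark in the fit without variance moderation.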

How the data were processed

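Total RNA of epidermal sheets was labelled with biotin after amplification with the Ambion Expression WT kit, per the labels' protocols. The authors deposited a table of log2 values, 1 for each probe set and array. RMA, Partek and mm10 are the tools and genome build named in the submitters' processing notes, without version or settings. RMA makes array distributions alike, which hides a general change in RNA per cell. Array medians still differed a little. The 95th percentile of the negative controls was 8.07, 7.79 and 7.68 on the Rptor cKO arrays and 7.61, 7.66 and 7.46 on the wild-type arrays. No slide, scan date or detection flag was at hand to test array batches. The limma p-values rest on the spread between the 3 arrays of a group, moderated toward the spread typical of all genes. The series description calls the arrays of a group biological replicates.

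Of 72688 probe sets, 6732 were controls, 30604 named 1 gene, 2146 several and 33206 none, by the platform annotation with 1135 symbols updated through RefSeq (GRCm38.p6). This left 30063 genes. Differences were fitted with limma 3.58.1 (lmFit, eBayes; R 4.3.3), two-sided, with group as the sole term and 4.31 prior degrees of freedom, adjusted by Benjamini-Hochberg with a threshold of 0.05 and no filter on dim genes. SE is the moderated standard error, and in the comparison of related genes the unmoderated one. The procedure was tested on simulated data for Rptor cKO against wild-type (30063 genes, 5 draws) and recovered 29.2% of genes with a log2 change of 0.5, 96.8% of those with 1 and 98.8% of those with 1.5, with 77 false among 889 calls. The false share of these calls was above the nominal 0.05. The simulated noise was normal, had each gene's moderated variance and was independent between genes. Far fewer genes were changed than the 1791 falls and 1095 rises called here. These rates therefore need not hold for the arrays. Python 3.11.15, pandas 2.3.3 and matplotlib 3.10.9 were used for the rest.

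Members, steps, the wider list and the marker lists were chosen with earlier results of these data known. Of the 42 genes, each one past the threshold is given array by array. In the wider list up to 4 genes per role and direction with the smallest p are named. Alternatives were array medians subtracted, quantile normalization, a filter on dim genes, no moderation, a trended robust prior, the mean of all probe sets of a gene, embryo sex as a term and each array left out. Those for the wider list's single genes, for Rptor and for the marker counts were chosen after seeing the data.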

Additional observations from a re-analysis of the deposited data

How the results depend on the processing

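The 11 genes that fell, picked by their difference on these same arrays, were below 0 under every alternative run. None of the 42 genes rose under any. The count of falls was 12 with array medians subtracted, 8 with quantile normalization, 9 with a trended robust prior, 11 with dim genes filtered and 11 with the mean of all probe sets of a gene. It was 2 with embryo sex as a term, where the falls among all genes were 1.47%, and 0 without variance moderation, a fit that called 2 genes as lower and 6 as higher among all 30063. With 1 array left out it ran from 2 (when Rptor cKO array 2 was dropped, with 2.07% of all genes lower) to 10, and the list median from -0.42 to -0.35. The falls of the wider list numbered 6 with quantile normalization, 2 with embryo sex and 0 without moderation, and from 3 to 9 with 1 array left out. Its rise was 0 without moderation, with the trended prior and with embryo sex, and from 0 to 1 with 1 array left out. Signs that turned were those of genes far from the threshold. Sqstm1 read 0.08 with quantile normalization and with embryo sex. With 1 array left out Sqstm1 ran from -0.10 to 0.11, Atg10 from -0.15 to 0.02, Atg16l1 from -0.13 to 0, Ulk2 from -0.01 to 0.34 and Pik3r4 from -0.07 to 0.14. The causes of these changes were not tested. No paired analysis was possible because the array numbers 1 to 3 and 4 to 6 are not shared between the groups.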

Other observations

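A further probe set named both Atg4a and its pseudogene Atg4a-ps and so was given to neither. It read 4.47, 4.39 and 4.52 in Rptor cKO and 4.4, 4.51 and 5.02 in wild-type, with overlapping groups. Uvrag had a second, dimmer probe set, which read 3.32, 3.27 and 3.09 in Rptor cKO against 3.46, 3.59 and 3.25 in wild-type, all below the values of the probe set used.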
